A study of Homo sapiens with 16 samples.

Results

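The sites described here are stretches of open chromatin in LNCaP prostate cancer cells at which none of 3 chromatin proteins was called. They were chosen by overlap of measured peaks. A control ATAC-seq peak was a member when it overlapped no control peak of HOXB13, HDAC3 or HDAC1 by 1 bp or more, on chromosomes 1 to 22 and X. Of 36792 control ATAC peaks, 13122 (35.7%) were members. The other 23670 fell into 3 classes by the same lists: 4261 overlapped HOXB13 only, 14058 overlapped HDAC3 or HDAC1 only (called deacetylase only below), and 5351 overlapped HOXB13 and a deacetylase. The absence of the 3 proteins at members is the rule itself and not a result. It means that no peak was called there, not that the protein was absent.

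ATAC-seq marks DNA that a transposase can reach, which in most cells is found at promoters, enhancers and insulators where nucleosomes are displaced by bound proteins. HOXB13, a homeodomain protein of prostate epithelium, binds many enhancers together with the androgen receptor. HDAC1 and HDAC3 are histone deacetylases, enzymes that remove acetyl groups from histone tails. HDAC3 works in the NCOR and SMRT corepressor complexes and HDAC1 in the SIN3, NuRD and CoREST complexes. Acetylation of histone H3 lysine 27 (H3K27ac) marks active promoters and enhancers and is a substrate of such enzymes.

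The study asked how HOXB13 and HDAC3 act on chromatin in prostate cancer cells. LNCaP, an androgen-sensitive line from a lymph node metastasis, was infected for 7 days with lentivirus carrying a short hairpin RNA against HOXB13 (shHOXB13), with shHOXB13 plus a virus for the wild-type protein (shHOXB13+WT), with shHOXB13 plus a virus for the G84E variant (shHOXB13+G84E, a germline variant linked to prostate cancer risk), or with the control hairpin vector (pGIPZ). The lists used were ATAC-seq (50000 cells per reaction) and HDAC3 of shHOXB13 and pGIPZ cells, HOXB13 of all 4 LNCaP groups, HDAC1 of pGIPZ cells, and, from the androgen-independent line PC-3, H3K27ac of shHOXB13 and pGIPZ cells and HOXB13 of pGIPZ cells. LNCaP H3K27ac libraries were not analysed here, so acetylation is given in another cell line than accessibility.

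Each group held 1 library, which leaves the spread between cultures unmeasured, and p-values were not computed. Intervals are 95% and cover counting error only. Library totals lay between 13.5 M and 47.2 M tags (M for mega). The ATAC libraries held 25.5 M tags in knockdown and 36.1 M in control cells, with 2.38% and 2.46% of the tags in peaks. The tag threshold for the false discovery rate of 0.001, as normalized tag count (tags per 10000000 tags of the library), was 3.92 in the knockdown and 3.04 in the control ATAC library. Weak control peaks could thus fall under the knockdown threshold. The thresholds were not a floor on the deposited counts. Control counts reached down to 2.49 at members and 2.21 at the other peaks, and a knockdown peak named below had 3.53. In the PC-3 HOXB13 library another antibody was used than in the LNCaP libraries, per the labels.

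Members were weak peaks. Their control normalized tag count had a median of 4.70, with 25% of them under 3.87, 75% under 6.09 and 95% under 10.5. The medians were 5.53 at the other control ATAC peaks, 4.70 at HOXB13-only, 5.81 at deacetylase-only and 5.81 at sites with both. The median fold over the local background was 7.38 at members and 9.63 at the other peaks, in the authors' values. Of the members, 4077 (31.1%) lay under the knockdown threshold, against 19.0% of the other peaks.

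Most members were not far from the proteins that defined them. The gap to the nearest control HOXB13, HDAC3 or HDAC1 peak had a median of 372 bp, and 25% of the members lay within 105 bp. For 8286 members (63.1%) the gap was at most 1000 bp, and these are called near members. The nearest peak was HDAC1 for 4156 of them (50.2%), HDAC3 for 2515 (30.4%) and HOXB13 for 1615 (19.5%). The 4836 far members (36.9%) had none of the 3 peaks within 1000 bp. A control ATAC peak of another class lay within 1000 bp of 4892 near members (59.0%), and of 6 far members. Many near members thus had a neighbouring accessible site with a called protein. For far members the definition itself nearly excludes such a neighbour, since an ATAC peak of another class overlaps a control factor peak. The low count at far members is therefore not a result.

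At the boundary of the rule, the 445 members with a gap of at most 10 bp had a median control tag count of 5.53. The 432 other peaks with an overlap of at most 10 bp had a median of 5.26. A knockdown ATAC peak lay at 45.6% of the first set and 43.5% of the second, so peaks just inside and just outside the rule had close values.

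After HOXB13 knockdown fewer members than other accessible sites were called again. Of the members 5145 had an overlapping knockdown ATAC peak, 39.2% (95% CI 38.4 to 40.0), against 49.8% of all control ATAC peaks. The shares were 48.3% at HOXB13-only, 55.0% at deacetylase-only and 63.7% at sites with both. Members were 16.5 percentage points under the other control ATAC peaks (−16.5, 95% CI −17.6 to −15.5). Members had the lowest share of the 4 classes. With the better-scoring 50% of the knockdown list 21.8% of the members were called again, and of the members in the better-scoring 50% of the control list 62.1%.

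The difference was smaller between sites of equal strength. When the other peaks were weighted to the members' distribution over 10 equal groups of control tag count, the difference was −9.33 points (95% CI −10.3 to −8.33). The share called again was 16.2% of the weakest and 77.9% of the strongest group of members, against 24.96% and 82.1% of the other peaks. Members were lower in all 10 strength groups. At equal strength they were −8.75 points from HOXB13-only, −7.09 from deacetylase-only and −16.2 from sites with both. Among peaks at or over the knockdown threshold, 48.3% of 9045 members and 61.8% of 19163 other peaks were called again. Under it, 19.1% of 4077 members and 30.1% of 4507 other peaks were still called again.

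**Figure D1:**
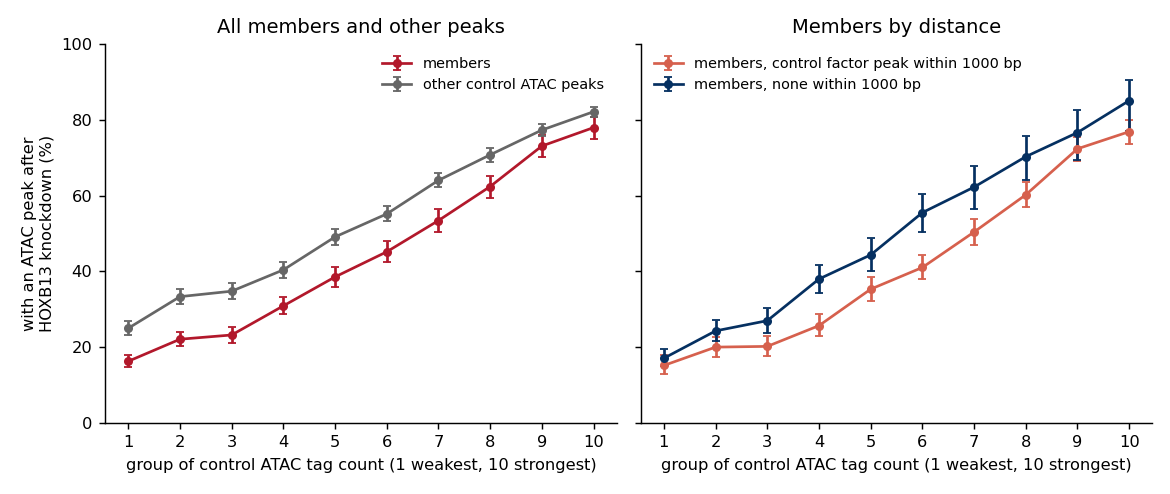
Percent of control ATAC peaks with an overlapping knockdown ATAC peak in 10 groups of control ATAC tag count, for members and the other control ATAC peaks (left) and for members with and without a control HOXB13, HDAC3 or HDAC1 peak within 1000 bp (right). Bars are Wilson 95% intervals for counting error; the weakest group of members stands at 16.2% and the strongest at 77.9%, under the other peaks in each group.

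A peak that was not called again often had a knockdown ATAC peak beside it. Of the 7977 members without an overlapping knockdown peak, 884 (11.1%) had one within 100 bp and 3080 (38.6%) within 500 bp. For the 10476 other control peaks not called again, these shares were 22.4% and 48.9%. Counting a knockdown peak within 1000 bp, 68.2% of the members and 79.1% of the other peaks had open chromatin called close by. How often a second library of unchanged cells would call a member again was not measured.

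Near and far members differed in the order of their shares according to strength. Of the near members 40.7% were called again, against 36.7% of the far members, a difference of 4.0 points (95% CI 2.27 to 5.71). Near members were stronger, with a median control tag count of 4.98 against 4.15 at far members, and 23.8% of near members lay under the knockdown threshold, against 43.6% of far members. At equal strength the order turned, with near members −8.46 points from far members (95% CI −10.3 to −6.66). Near members were lower in all 10 strength groups, with 15.1% against 17.0% in the weakest and 76.8% against 85.0% in the strongest.

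With a looser rule that counted any knockdown ATAC peak within 500 bp, the order turned once more, and near members were 16.3 points above far members at equal strength (95% CI 14.7 to 17.9). Of the 4915 near members not called again, 55.9% had a knockdown peak within 500 bp, against 10.9% of the 3062 such far members. Among near members, those with an ATAC peak of another class within 1000 bp were −15.5 points from all other control ATAC peaks at equal strength, and near members without one were −6.28 points. Far members were −5.23 points from the other control ATAC peaks at equal strength (95% CI −6.69 to −3.78). These values count overlapping knockdown peaks only. Counting a knockdown peak within 500 bp, near members with such a neighbour were 6.26 points above the other control ATAC peaks at equal strength (95% CI 5.11 to 7.41), near members without one were −9.82 points from them, and far members −19.6 points. For all near members the difference was then −0.33 points (95% CI −1.35 to 0.70).

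Where a member was called in both ATAC libraries, its tag count differed little. The median normalized tag count of the 5145 members was 6.28 in knockdown and 5.81 in control cells. The median log2 ratio (knockdown over control) was 0.13, with 0.12 at the 13194 other peaks called in both, and 90% of the members lay between −0.59 and 0.89. The knockdown peaks were 110 bp wide and the control peaks 96 bp, and as tags per bp the median of the members was −0.07. The sign of the median thus differed between tag counts and tag density. By strength the median ratio of tag counts was 0.73 in the weakest group of members and −0.15 in the strongest, and only peaks called in both lists enter these medians.

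Large differences were rare. A log2 ratio at or below −1 was found at 24 members (0.467%), against 0.474% of all control ATAC peaks called in both lists, and one at or above 1 at 160 members (3.11%, 95% CI 2.67 to 3.62), against 2.66%. Those shares were near the background. As tags per bp the counts were 86 and 63, and centred on the median of all peaks called in both lists 65 and 86. A ratio at or below −1 was found at 21 of the 3371 near members called in both (0.623%) and 3 of the 1774 far members (0.169%). One at or above 1 was found at 61 near members (1.81%) and 99 far members (5.58%). These shares are not at equal strength. Far members were weaker, and the median log2 ratio of near and far members was 0.64 and 0.73 in the weakest group and −0.19 and 0 in the strongest. Among members at or over the knockdown threshold in control cells 47 had a ratio at or above 1.

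Named ratios come from members whose mean tag count over both libraries was at least 6.52, the median of all control peaks called in both. The largest was on chromosome 11 at 9386024 to 9386120 (hg19), with 13.0 normalized tags in knockdown and 3.04 in control cells (log2 ratio 2.10, 95% CI 1.07 to 3.22). This site lay 29 bp from a control factor peak and in PC-3 H3K27ac regions of 432.6 normalized tags in knockdown and 367.6 in control cells. The next was on chromosome 14 at 21121243 to 21121339, with 11 tags per 10000000 in knockdown and 3.04 in control cells (log2 ratio 1.86, 95% CI 0.80 to 3.01). Sites on chromosome 5 at 62015924 to 62016020 and on chromosome 16 at 34423040 to 34423136 each had 11.4 tags in knockdown and 3.32 in control cells (log2 ratio 1.78). A site on chromosome 3 at 127413451 to 127413547 had 11 in knockdown and 3.32 in control cells (log2 ratio 1.73). These last 4 sites were all far members, with the nearest control factor peak at 2711 to 21307 bp, and the ATAC lists were the only lists that called them. Control values of 3.04 and 3.32 are 11 and 12 tags, the first of them at the control threshold and both in the weakest strength group. That group held 773 near and 1044 far members, and PC-3 control H3K27ac covered 28.8% of its members. These 5 sites passed the limit on the mean only through their knockdown values.

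The lowest ratios were all at near members. A site on chromosome X at 153775449 to 153775545 had 3.53 normalized tags in knockdown and 11.1 in control cells (log2 ratio −1.65, 95% CI −2.88 to −0.58). It was followed by chromosome 6 at 13487811 to 13487907, with 3.92 tags in knockdown and 10.8 in control cells (log2 ratio −1.46, 95% CI −2.63 to −0.43). On chromosome 12 at 133464196 to 133464292 the values were 4.32 in knockdown and 10.8 in control cells (log2 ratio −1.32). On chromosome 14, sites at 54907674 to 54907770 and at 100680807 to 100680903 each had 4.71 tags in knockdown and 11.3 in control cells (log2 ratio −1.26). These 5 sites lay 19 to 444 bp from a control factor peak, and all 5 lay in H3K27ac regions of both PC-3 libraries. Their control values put these 5 sites in the strongest strength group, which held 704 near and 107 far members. PC-3 H3K27ac covered 83.7% of the members of that group in knockdown and 84.1% in control cells. The position and acetylation of these 5 sites are thus common among members of such strength. These sites passed the limit on the mean only through their control values. Each of these named regions was picked as extreme among the 2086 such members off chromosome 8 (2183 with it), and the intervals are not adjusted for that.

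**Figure D2:**
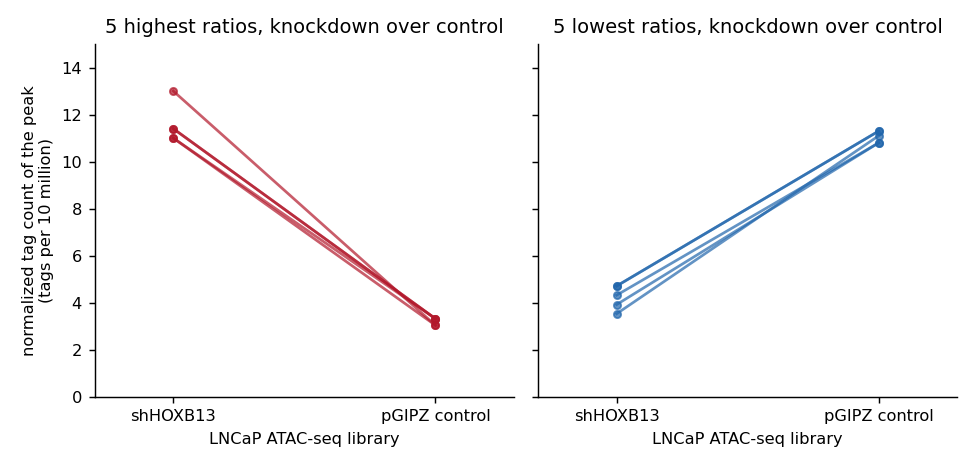
Normalized ATAC tag count (tags per 10000000 tags) in the shHOXB13 and pGIPZ libraries of LNCaP at the 5 members with the highest and the 5 with the lowest ratio, 1 line per site; lines of equal values overlie each other. Values lie between 11 and 13.0 in knockdown and 3.04 and 3.32 in control cells at the highest ratios, and span 3.53 to 4.71 in knockdown and 10.8 to 11.3 in control cells at the lowest.

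After HOXB13 knockdown an HDAC3 peak lay over 1777 members, 13.5% (95% CI 13.0 to 14.1), against 30.4% of all control ATAC peaks. The share was 18.0% at HOXB13-only sites, which like members had no control HDAC3 peak, and members were −4.48 points from them (95% CI −5.80 to −3.21; −4.46 at equal strength). Sites with a control deacetylase peak stood at 42.3% (deacetylase only) and 50.5% (with HOXB13 as well). Of the 1777 members, 536 (30.2%) met a knockdown HDAC3 peak that itself touched a control HDAC3 peak, so HDAC3 was called beside these members in control cells too. At the other 1241 members (9.46% of all) it touched none. With peak centres within 100 bp the share of members was 5.85%, and with the better-scoring 50% of the knockdown HDAC3 list 8.89%.

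The knockdown HDAC3 peaks at members had a median of 13.7 normalized tags, against 11.8 for the whole list. Of the 1777, 96.2% were at or above the control HDAC3 threshold of 7.42 and 41.0% at or above a value 2 times as high. HDAC3 was called most often at members within 100 bp of a control factor peak (19.9%), and at 8.18 to 12.7% of members in each wider gap group. The HDAC3 libraries differed in depth, with 26.3 M tags in knockdown and 21.6 M in control cells, and in the estimated fragment length (364 bp in knockdown and 146 bp in control cells). The part of these differences in the HDAC3 calls was not tested. A strong example outside the dense windows described below lay on chromosome 1 at 149224484 to 149224580. It had a knockdown HDAC3 peak of 51.3 normalized tags, with ATAC values of 31.8 in knockdown and 24.1 in control cells (log2 ratio 0.40, 95% CI −0.05 to 0.85).

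HOXB13 itself was called at few members after its knockdown. The list had a peak at 415 members, 3.16% (95% CI 2.88 to 3.48), against 4.8% of all control ATAC peaks. HOXB13-only sites had 2.11%, so members were 1.05 points higher (95% CI 0.49 to 1.55), and deacetylase-only sites had 7.28%. Of the 415 members, 13 met a peak that touched a control HOXB13 peak. The median of the met peaks was 5.51 normalized tags, and near members had such a peak at 4.30%, far members at 1.22%. With peak centres within 100 bp the share of members was 1.88%, and in the better-scoring 50% of the control ATAC list 4.78%.

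Re-expressed HOXB13 reached a minority of the members. The HOXB13 lists differed in size, with 191796 peaks with G84E, 190879 with WT and 91430 in control cells. Their libraries held 44.2 M, 40.3 M and 34.4 M tags, with 15.6%, 17.1% and 9.17% of the tags in peaks. The part of these differences in the HOXB13 calls was not tested. With G84E a HOXB13 peak lay at 876 members, 6.68% (95% CI 6.26 to 7.12), against 22.8% of all control ATAC peaks. With WT it lay at 1236 members, 9.42% (95% CI 8.93 to 9.93), against 27%. Deacetylase-only sites, which also lacked control HOXB13, had shares close to these, with 8.32% for G84E and 11.4% for WT. Members were −1.65 points from them with G84E (95% CI −2.27 to −1.02) and −2.00 with WT (95% CI −2.73 to −1.28), and −0.88 with G84E and −1.01 with WT at equal ATAC strength. At HOXB13-only sites the shares were 64.5% with G84E and 72.9% with WT. With peak centres within 100 bp the members' shares were 3.95% with G84E and 6.13% with WT, and with the better-scoring 50% of each list 3.37% and 4.84%.

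G84E was called at fewer members than WT, with a difference (G84E minus WT) of −2.74 points. Both forms were called at 438 members (3.34%), G84E alone at 438 (3.34%), WT alone at 798 (6.08%) and neither at 11448 (87.2%). Over all control ATAC peaks the shares were 17.9% with both, 4.85% with G84E alone, 9.06% with WT alone and 68.2% with neither. Where both were called, the median log2 ratio of tag counts (G84E over WT) was −0.27 at members and −0.33 at the other control ATAC peaks. The peaks at members had a median of 6.34 normalized tags with G84E and 6.70 with WT, and 86.0% of the G84E and 89.2% of the WT peaks were at or above the control HOXB13 threshold of 4.66. Of the 876 members with G84E, 142 (16.2%) met a peak that touched a control HOXB13 peak, and of the 1236 with WT 166 (13.4%) did.

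Re-expressed HOXB13 was not called more often at near than at far members. Near members had a G84E peak at 6.53% and far members at 6.93%, a difference of −0.40 points with an interval that held 0 (95% CI −1.31 to 0.48). For WT the shares were 8.59% at near and 10.8% at far members, a difference of −2.24 points (95% CI −3.32 to −1.19). The strongest member with both forms was on chromosome 10 at 28592096 to 28592192, with 4.98 normalized HOXB13 tags with G84E and 6.46 with WT. Its ATAC value was 18.4 in knockdown and 20.5 in control cells, and it lay in no PC-3 H3K27ac region. A second one, on chromosome 9 at 2015236 to 2015332, had 6.79 HOXB13 tags with G84E and 9.19 with WT. Another, on chromosome 1 at 6845095 to 6845191, had 6.34 with G84E and 5.21 with WT and was also a HOXB13 site of PC-3 (12.7 tags).

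**Figure D3:**
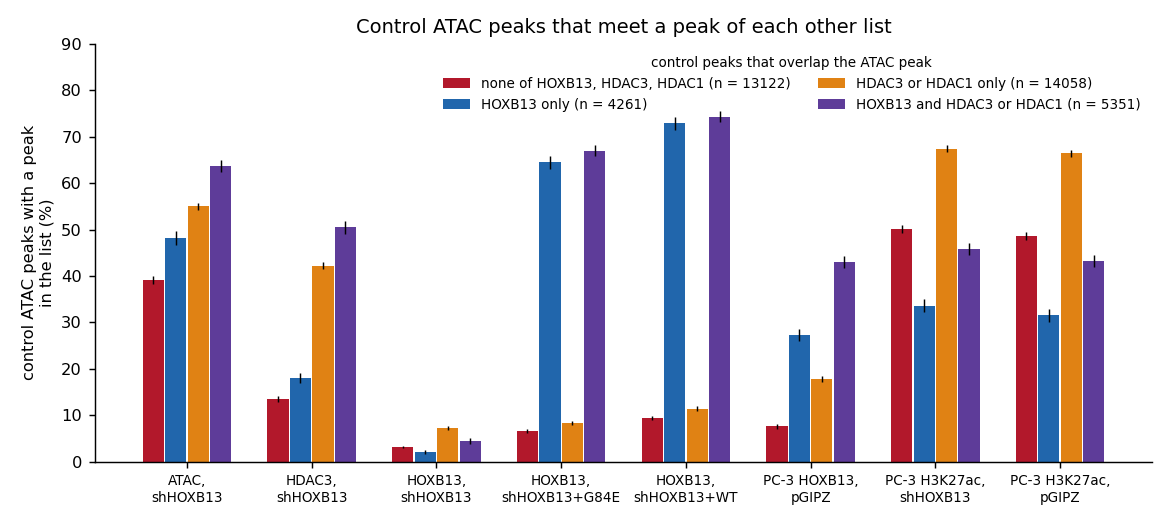
Percent of control ATAC peaks that overlap a peak of each of 8 other lists, for members and for the other 3 classes, with Wilson 95% intervals for counting error. Members have the lowest share for ATAC and HDAC3 of shHOXB13 cells, for re-expressed HOXB13 and for PC-3 HOXB13. For HDAC3 and HOXB13 this order is partly set by the rule, since control peaks of these proteins defined the other classes. HOXB13-only sites stand at 18.0% for HDAC3, and deacetylase-only sites at 8.32% for G84E and 11.4% for WT. For PC-3 control H3K27ac members have a share of 48.7%, between HOXB13-only (31.6%) and deacetylase-only sites (66.4%).

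Acetylation in PC-3 was common at members. A knockdown H3K27ac region of PC-3 covered 6576 members, 50.1% (95% CI 49.3 to 51.0), against 54.2% of all control ATAC peaks. A control region covered 6392, 48.7% (95% CI 47.9 to 49.6), against 52.7%. For the control regions members were 17.1 points above HOXB13-only sites (17.1, 95% CI 15.5 to 18.8) and 17.7 points under deacetylase-only sites (−17.7, 95% CI −18.9 to −16.6). They were 5.50 points above sites with HOXB13 and a deacetylase (95% CI 3.92 to 7.08). Against all other control ATAC peaks together the difference was −6.20 points, and −0.55 at equal ATAC strength (95% CI −1.59 to 0.50), so no difference was detectable there. Of the 4 classes, HOXB13-only sites had the lowest share, at the same median ATAC tag count as members.

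Within the members acetylation went with strength and with the gap to a control factor peak. It covered 28.8% of the weakest and 84.1% of the strongest group. Near members had it at 64.9% and far members at 21.0%, a difference of 43.9 points (95% CI 42.4 to 45.5), or 37.0 at equal strength. The share of near members was above that of HOXB13-only sites and the share of far members below it. The share was 67.9% with a gap of up to 100 bp and 68.0% between 100 and 250 bp, 51.2% between 500 and 1000 bp, 29.5% between 1000 and 2500 bp and 16.2% beyond 25000 bp. H3K27ac regions are broad, with a median of 2590 bp for the 5165 control regions that held members, so a region can cover a member and a factor peak beside it.

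Members in and outside control H3K27ac regions also differed in other lists. They were called again after knockdown at 43.3% in and 35.4% outside these regions, and at equal strength members in the regions were −4.88 points from those outside (95% CI −6.64 to −3.12). PC-3 HOXB13 was called at 10.7% of members in and 4.70% outside, and WT HOXB13 of LNCaP was called at 8.15% in and 10.6% outside. H3K27ac was present in both PC-3 libraries at 6057 members (46.2%), in the knockdown library alone at 519 (3.96%), in the control alone at 335 (2.55%), and in neither at 6211 (47.3%). Over all control ATAC peaks it was present in both at 50.5%, in the knockdown library alone at 3.65%, in the control alone at 2.16% and in neither at 43.7%. Where both had a region, the median log2 ratio of tag density (knockdown over control) was 0.28 at members and 0.31 at the other control ATAC peaks. The share of all tags that lay in regions differed between the whole libraries by a log2 ratio of 0.25.

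**Figure D4:**
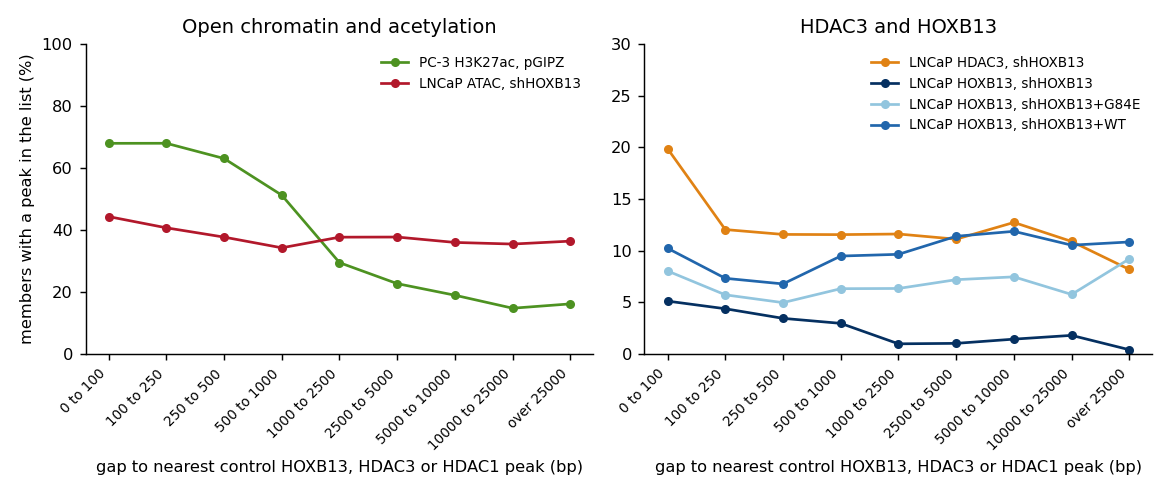
Percent of members with a peak of each list, by the gap in bp to the nearest control HOXB13, HDAC3 or HDAC1 peak, for PC-3 control H3K27ac and LNCaP knockdown ATAC (left) and LNCaP HDAC3 and HOXB13 lists (right, with a smaller axis range). H3K27ac stands at 67.9% at gaps up to 100 bp and at 16.2% beyond 25000 bp, and knockdown ATAC lies between 34.2% and 44.3% in every bin.

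PC-3 HOXB13 was called at 997 members, 7.60% (95% CI 7.16 to 8.06), against 18.9% of all control ATAC peaks. It was called at 27.3% of HOXB13-only, 17.8% of deacetylase-only and 43.0% of sites with both. Of the 997 members, 68.3% (95% CI 65.3 to 71.1) lay in a PC-3 control H3K27ac region, against 47.1% of the members without PC-3 HOXB13. The median PC-3 HOXB13 peak at members had 11.2 normalized tags, against 12.7 for the whole list. The share of members was 4.12% with peak centres within 100 bp and 3.17% with the better-scoring 50% of the list.

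A small set of members carried a large share of the tags. The 42 members over 25 normalized tags (0.320% of the members) held 13.8% of all tags at members. Of these, 34 lay in 6 windows of 1000000 bp with 2 or more such members. The 2 strongest, with 5205 and 1930 normalized tags in control cells, lay outside those 6 windows, each in a window with 1 such member. One stretch on chromosome 16, from 46386122 to 46417313, held 18 of them. PC-3 H3K27ac regions of control cells covered all 42, and 32 were called again after knockdown. Over all control ATAC peaks of any strength these shares were 52.7% and 49.8%. Over the 811 members of the strongest strength group they were 84.1% and 77.9%, so the share called again was not raised at the 42. Peaks over 25 were not particular to members, as 60 of the other control ATAC peaks were also over 25. The 2 shares were not computed for those 60. The headers record no list of excluded regions. PC-3 control H3K27ac reached 9204 and 13345 normalized tags at members named below, against a median of 30.7 over that list. Whether the tags there are regulatory signal of the site was not tested, and the narrow intervals of the ratios below cover counting error alone.

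The strongest member was on chromosome 1 at 569878 to 569974, with 9172 normalized tags in knockdown and 5205 in control cells (log2 ratio 0.82, 95% CI 0.79 to 0.85). It was followed by a member on chromosome 5 at 134260223 to 134260319 with 3168 in knockdown and 1930 in control cells (log2 ratio 0.71, 95% CI 0.67 to 0.76). Chromosome 1 also held the next member, at 121484762 to 121484858, with 816.0 in knockdown and 724.8 in control cells (log2 ratio 0.17, 95% CI 0.09 to 0.25). All 3 were near members. On chromosome 10, a member at 42392683 to 42392779 had 440.0 in knockdown and 456.4 in control cells. Another at 42385512 to 42385608, with 329.1 in control cells, was not called again, and the next knockdown ATAC peak lay 224 bp away. That last one was also the strongest member not called again, followed by a member at 42384684 to 42384780 of the same chromosome (327.7 in control cells, next knockdown peak at 398 bp). The other 3 of the 5 strongest not called again were on chromosome 19 (113.2) and in the stretch of chromosome 16 (56.2 and 36.0). The strongest member with a knockdown HDAC3 peak was on chromosome 6 at 58779011 to 58779107, with ATAC values of 150.3 in knockdown and 127.6 in control cells and 603.2 HDAC3 tags in knockdown cells. It was followed by chromosome 10 at 42600007 to 42600103, with 28.8 ATAC tags in control cells, no ATAC call in knockdown cells and 7198 HDAC3 tags in knockdown cells, against a median of 11.8 over the HDAC3 list.

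Outside the windows with a member over 25, the strongest members, chosen after their values were seen, differed in direction. A site on chromosome 16 at 33237954 to 33238050 had 28.7 normalized tags in knockdown and 24.9 in control cells (log2 ratio 0.20, 95% CI −0.26 to 0.66). Chromosome 6 at 155635591 to 155635687, 49 bp from a control factor peak, had 13.0 in knockdown and 24.6 in control cells (log2 ratio −0.92, 95% CI −1.55 to −0.34). Chromosome 7 at 94287194 to 94287290 had 20.8 in knockdown and 24.1 in control cells (log2 ratio −0.21, 95% CI −0.73 to 0.30). Only the site on chromosome 6 had an interval apart from 0 among these 5. PC-3 H3K27ac over it measured 203.4 normalized tags in knockdown and 113.6 in control cells.

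At the other end, 3055 members (23.3%) were called in the control ATAC list and in none of the other 11 lists. The rule itself kept members out of 3 of these, so only 8 lists could call them. The share of all control ATAC peaks in none of those 8 lists was not computed. These 3055 members were weaker, with a median control tag count of 3.87 against 4.98 at the remaining members. They were more often far members (61.3% against 29.4%) and more often under the knockdown threshold (53.8% against 24.2%). Knockdown ATAC calls and PC-3 H3K27ac were both less frequent at weak and at far members. The differences in strength, gap and threshold thus follow at least in part from the way of picking these 3055 members. The strongest of them lay on chromosome 18 at 30050763 to 30050859 (15.5 normalized tags), on chromosome 15 at 75746690 to 75746786 (14.7) and on chromosome 2 at 97482194 to 97482290 (13.0). A knockdown ATAC peak lay 18, 26 and 133 bp from these 3.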

How the data were processed

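ATAC-seq and ChIP-seq peak lists of 12 libraries were analysed, 1 library per group, grouped by the labels. The submitters' processing notes name Bowtie2, HOMER 4.2 and hg19. The authors ran findPeaks on each library at a false discovery rate of 0.001 without an input library, per the file headers. The factor style was used (peaks of fixed width, 4-fold over the surrounding 10000 bp at a local Poisson p-value of 0.0001), and for H3K27ac the histone style with windows of 1000 bp. The deposited signal is the normalized tag count per 10000000 tags. The deposited findPeaks score ranked peaks in an alternative only. The deposited fold over the local background and the deposited fraction of tags on the proper side of a peak's centre (median 0.667 at members, 0.659 at other peaks) are the authors' own values. All values under 10 came out as whole tags within 0.1 tags (100%).

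Of the 37073 control ATAC peaks, 281 (0.758%) off chromosomes 1 to 22 and X were left out. Peaks overlapping by at least 1 bp were counted as shared, and the highest tag count was used where a peak met several. Shares have Wilson, differences Newcombe and tag ratios exact (Clopper-Pearson) 95% intervals. Differences at equal strength were weighted to the members (or the first set named) over 10 equal groups of control ATAC tag count, with analytic intervals. Overlap calls, gaps, tag ratios and the coverage of Wilson intervals were tested on simulated data. PCR duplicates cannot be told apart, and intervals cover counting error only, not the spread between cultures. Named regions, none on chromosome 8, were the 5 strongest members, the 5 highest and 5 lowest ratios among members called in both ATAC lists whose mean tag count reached the median, the 5 strongest not called again, and the 3 strongest with knockdown HDAC3, with WT and G84E, and in no other list. The members, lists and comparisons were chosen with earlier results of these data known. Alternatives were other overlap rules, better-scoring peaks only, stricter or looser membership, autosomes only, tag density, and centring. Sequence and annotation of hg19 were not used here, so motifs, start sites, gene lists and marker loci were not analysed here, and regions carry no gene names. Python 3.11.15, numpy 2.4.6, pandas 2.3.3, scipy 1.17.1 and matplotlib 3.10.9 were used.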

Additional observations from a re-analysis of the deposited data

How the results depend on the processing

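Values are given in the order knockdown ATAC, knockdown HDAC3, knockdown HOXB13, G84E, WT, PC-3 HOXB13, PC-3 knockdown and PC-3 control H3K27ac, as shares of members, where a setting moved them beyond their counting interval. With 50% of the shorter peak overlapped they were 30.1%, 10.4%, 2.33%, 5.26%, 7.58% and 6.49%. With peak centres within 100 bp the HDAC3 and HOXB13 shares were 5.85%, 1.88%, 3.95%, 6.13% and 4.12%. In the better-scoring 50% of control ATAC peaks they were 62.1%, 16.0%, 4.78%, 10.2% (WT), 8.56% (PC-3 HOXB13), 66.8% and 65.9%, and with the better-scoring 50% of the other list 21.8%, 8.89%, 2.34%, 3.37%, 4.84%, 3.17%, 34.9% and 33.7%. Among far members they were 36.7%, 11.2%, 1.22%, 10.8% (WT), 6.56% (PC-3 HOXB13), 22.2% and 21.0%. With the control lists at their better-scoring 50%, which made 17843 peaks members, they were 41.9%, 17.2% (HDAC3), 8.85% (G84E), 12.3%, 9.25%, 48.6% and 47.1%. The share with a knockdown ATAC peak was 48.3% at or above the knockdown threshold and 62.7% for a peak within 500 bp, both alternatives chosen after seeing the data. The difference in that share, members minus other control ATAC peaks, stayed below 0 in every setting run. It was −9.33 at equal strength, −11.8 with 50% overlap, −8.97 and −14.7 in the better-scoring 50% of control ATAC peaks and of the knockdown list, −15.2 for far members against all remaining control ATAC peaks (near members included), −15.4 with the better-scoring control lists, −14.4 without regions called in 9 or more lists, −13.5 over the knockdown threshold and −14.7 within 500 bp. No member was called in 9 or more lists, so leaving such regions out could not move values of the members alone. The median log2 ratio of ATAC tag counts was −0.065 as tag density, which divides each count by the peak width. This takes the tags as evenly spread over a peak, which was not tested. Members at or below −1 numbered 86 as density, 65 centred on the median of all and 3 among far members. Members at or above 1 numbered 63 as density, 86 centred, 58 among members whose mean tag count reached the median, 99 among far members and 47 over the knockdown threshold. Of the 97 alternative values that could change, 37 stayed within their bounds. The causes of these shifts were not tested. Motif, start-site and gene-list alternatives were not run. No paired analysis was possible because each group held 1 library and no test was made. Of all members, 31.1% had a control tag count under the knockdown ATAC threshold, and what depth adds to the missing calls was not tested.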

Other observations

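Members were sorted by the combination of lists they met. The same combinations were not counted over all control ATAC peaks. Of those peaks, 50.5% lay in both PC-3 H3K27ac lists and 49.8% had a knockdown ATAC peak, with or without other lists. After the 3055 members in no other list, the most frequent was both PC-3 H3K27ac lists and no other, at 2410 members (18.4%). Knockdown ATAC with both PC-3 H3K27ac lists followed at 1653 (12.6%), and knockdown ATAC alone at 1445 (11.01%). Knockdown HDAC3 with both H3K27ac lists was found at 340 members (2.59%) and knockdown HDAC3 alone at 337 (2.57%). No member was called in more than 8 lists, and 7 were called in 8, where the rule kept members out of 3 of the 12 lists.

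Members were spread over all chromosomes analysed. They made up 39.3% (95% CI 35.1 to 43.5) of the control ATAC peaks of chromosome X and 39.1% of those of chromosome 2, and 29.9% (95% CI 27.7 to 32.2) of those of chromosome 19, the lowest share. PC-3 control H3K27ac covered 61.6% of the members of chromosome X, 59.7% of those of chromosome 14 and 36.6% of those of chromosome 15. A knockdown ATAC peak lay at 27.6% (95% CI 20.5 to 35.9) of the 127 members of chromosome 21 and at 42.0% of the 819 members of chromosome 3. The H3K27ac and knockdown ATAC shares by chromosome were computed for members only. Whether all control ATAC peaks of these chromosomes differ likewise was not tested. Copy numbers of these cell lines were not analysed here.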
